A study of Mus musculus with 6 samples.

Results

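The genes described are the members of 7 mouse solute carrier families that move amino acids, monoamines, taurine, creatine and related small molecules across membranes. They were chosen by symbol, as every row of the count table named Slc1a, Slc3a, Slc6a, Slc7a, Slc36a, Slc38a or Slc43a followed by a number, which took 59 of 23284 genes. The rule itself used no measured value, though it was set with earlier results of these data known. RNA-seq after removal of ribosomal RNA gave their transcript levels in 2 cell lines, MV+ and RAG, each grown in 3 separate flasks of serum-supplemented DMEM. MV+ cells, called Pax6-ON by the study, were derived from cultured lens epithelia of a wild-type C57BL6 mouse. RAG cells, called Pax6-OFF, were derived from a renal adenocarcinoma of the BALB/c strain. Neither line was treated or edited, and tissue of origin, strain and transformation differ together between them and cannot be told apart. Each line is a single line, so every p-value below measures the spread between flasks of these cells and not between lens and kidney.

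Amino acids enter cells through carriers that differ in what they accept and in what drives them. The Slc3 proteins are heavy chains that bring Slc7 light chains to the cell surface as heterodimers, Slc1, Slc6 and most Slc38 carriers use the sodium gradient, several Slc36 carriers use protons, and Slc43 carriers let large neutral amino acids pass down their gradient. The lens has no blood vessels and takes up amino acids from the aqueous humour for crystallin and glutathione synthesis, while the kidney proximal tubule recovers filtered amino acids from the urine. Many of these carrier genes are targets of ATF4, a transcription factor induced when amino acids are short.

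The promoter windows of 4 members are printed in the next paragraph. The Slc7a11 window is shown for the ATF4 motif, which it holds more than once, and the Slc36a1 window for the E-box bound by factors of lysosomal genes. The Slc36a4 and Slc6a17 windows belong to carriers read in 1 line and almost absent from the other. Sequences are from RefSeq on GRCm38.p6, another build than the mm9 positions of the count table, and are the 250 bases before the annotated start, read 5′ to 3′ on the strand of the gene. Of the 59 members, 41 matched an entry of the RefSeq promoter table. The Slc7a11 window is chr3:50443614-50443863 on the minus strand, the Slc36a1 window is chr11:55204090-55204339 on the plus strand, the Slc36a4 window is chr9:15709488-15709737 on the plus strand and the Slc6a17 window, 1 of 2 for that gene, is chr3:107518019-107518268 on the minus strand.

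The capitals in the Slc7a11 window mark matches to TGATGNAAN, the amino acid response element, and those in the Slc36a1 window a match to CACGTG, the E-box.
Slc7a11: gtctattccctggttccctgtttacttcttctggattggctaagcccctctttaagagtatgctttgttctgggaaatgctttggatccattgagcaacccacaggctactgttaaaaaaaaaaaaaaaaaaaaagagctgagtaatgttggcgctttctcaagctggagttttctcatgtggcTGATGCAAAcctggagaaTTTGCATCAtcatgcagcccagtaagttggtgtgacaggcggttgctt
Slc36a1: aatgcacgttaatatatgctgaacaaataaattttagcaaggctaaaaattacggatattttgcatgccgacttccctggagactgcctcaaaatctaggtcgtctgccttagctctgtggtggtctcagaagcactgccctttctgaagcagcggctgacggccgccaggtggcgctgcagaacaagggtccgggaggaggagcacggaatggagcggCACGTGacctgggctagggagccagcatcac
Slc36a4: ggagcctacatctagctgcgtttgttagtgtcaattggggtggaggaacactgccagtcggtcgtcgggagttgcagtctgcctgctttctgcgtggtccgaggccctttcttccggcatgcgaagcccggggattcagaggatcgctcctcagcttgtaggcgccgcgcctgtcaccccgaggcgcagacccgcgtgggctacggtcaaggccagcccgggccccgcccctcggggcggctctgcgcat
Slc6a17: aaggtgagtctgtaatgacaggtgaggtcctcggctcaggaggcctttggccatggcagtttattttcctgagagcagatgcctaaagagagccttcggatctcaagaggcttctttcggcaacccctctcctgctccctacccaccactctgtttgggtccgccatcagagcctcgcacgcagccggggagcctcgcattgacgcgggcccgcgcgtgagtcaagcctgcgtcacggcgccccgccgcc

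The Slc7a11 window held TGATGCAAA starting at position -66 and, read from the opposite strand, TTTGCATCA at position -48, counted from the annotated start. In the 300 bases from 250 before to 50 after a start, searched on both strands, TGATGNAAN was found for 3 of the 41 matched members (7.32%), Slc1a4, Slc7a7 and Slc7a11, and for 4.50% of all 27025 genes of the promoter table. The antioxidant response element, TGACNNNGC, was found for 8 members (19.5%) against 13.99% of all genes, among them Slc7a1, Slc7a6, Slc38a2 and Slc6a9. CACGTG was found for 8 members (19.5%) against 8.09% of all genes. They were Slc1a6, Slc1a7, Slc36a1, Slc38a5, Slc38a7, Slc43a1, Slc6a3 and Slc7a14, of which only Slc36a1 and Slc38a7 had a mean of at least 1 FPKM in a line. For Slc36a1 a further CACGTG crossed the start site at position -3 and shared 2 bases with a TGACNNNGC match. The Slc36a4 window was rich in CpG, with 23 of these dinucleotides against 2 for Slc7a11, 12 for Slc36a1, 18 for Slc6a17 and a median of 6 over all windows. A gene can have several windows, and the matched members had 62 against 32851 for all genes. By window, TGATGNAAN was in 6.45% for members and 3.95% for all genes, TGACNNNGC in 16.1% and 12.4%, and CACGTG in 12.9% and 7.15%. These matches are letters in a window and were not set against binding data.

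Library totals were 17413045, 19690449 and 22428230 counts in MV+ and 33790815, 28252165 and 43168532 in RAG. Pax6, which defines the lines, had 1136, 1159 and 1316 counts in MV+ and 0, 0 and 4 in RAG. Of the lens markers, Pax6, Sox2, Six3 and Mab21l1 were read in MV+ at a mean of 8.32 to 23.7 FPKM (counts scaled by exon length and library total), but Foxe3 had no count and Cryaa, Mip, Bfsp1, Bfsp2 and Cdh1 stayed under 0.5 FPKM in every library, and Cryab (31.9 against 59.3 FPKM) and Maf (7.53 against 19.1) were called lower in MV+ than in RAG. RAG had Krt18, Cdh16, Krt8, Pax8 and Pax2 and no count of Epcam, and it was below MV+ in Lrp2 and Cubn, the endocytic receptors of the proximal tubule. The 15 neuronal markers summed to 28.3 to 30.6 FPKM in MV+, mostly Map2 and Tubb3, against 1.65 to 2.27 in RAG. The 12 leukocyte, endothelial and erythroid markers summed to 2.51 to 3.38 FPKM in MV+ and 84.4 to 94.9 in RAG, where Cd68 made up nearly all, and the 10 glial markers, mostly Glul, summed to 24.2 to 24.6 against 48.4 to 51.9. These levels moved with the line, and their part in the results below was not tested. In such bulk libraries fewer cells of a type and less RNA per cell cannot be told apart.

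Both lines expressed a shared core of carriers, and each added a few that the other nearly lacked. Of the 59 members, 18 had a mean of at least 1 FPKM in both lines, 2 only in MV+ (Slc36a4 and Slc38a4), 5 only in RAG (Slc36a2, Slc6a17, Slc6a18, Slc6a19 and Slc7a4) and 34 in neither. Members summed to 501, 471 and 435 FPKM in MV+ and to 685, 673 and 725 in RAG, which was 0.201% to 0.221% of counts in MV+ and 0.272% to 0.292% in RAG. The 5 most abundant members took 64.9% to 72.8% of the members' FPKM in each library.

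**Figure D1:**
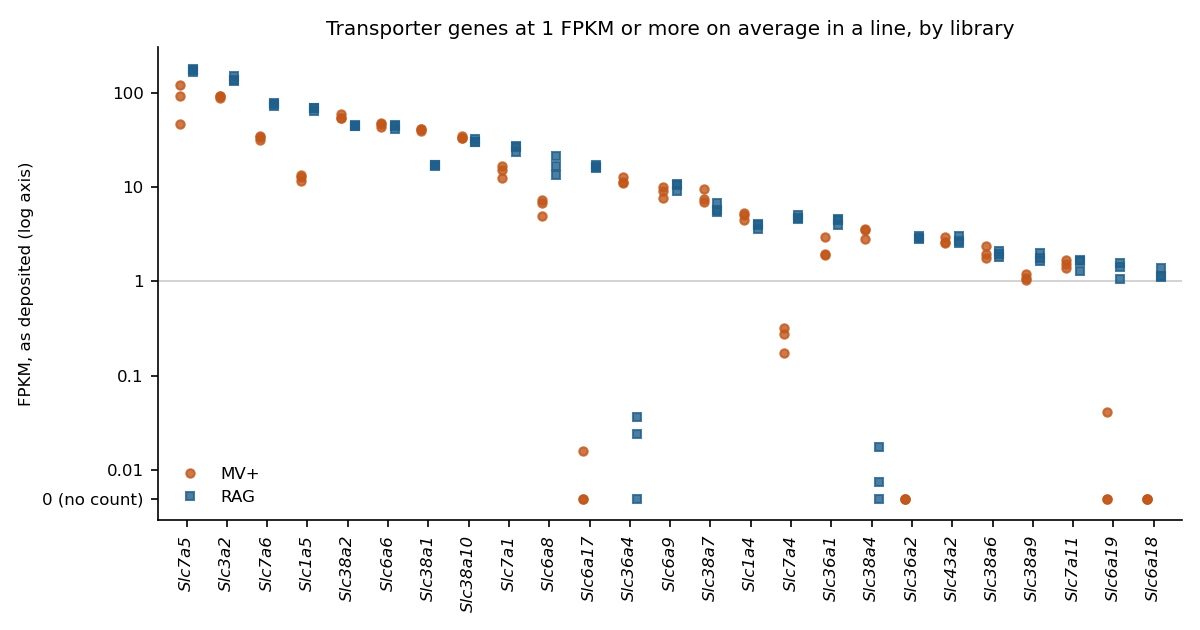
Deposited FPKM (log axis) of the 25 members with a mean of at least 1 FPKM in a line, with 1 point per library, orange circles for MV+ and blue squares for RAG, and libraries with no count drawn at the lowest tick. Slc7a5, Slc3a2 and Slc7a6 led in RAG at means of 174, 139 and 75.4 FPKM, and 7 members lay above the grey line at 1 FPKM in 1 line only.

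The lines were compared by edgeR's quasi-likelihood test over all 12965 genes that passed its filter on low counts. A called gene is one whose p, adjusted by the method of Benjamini and Hochberg, was below 0.05, and positive log2 fold changes mean a higher level in MV+. Of the members, 51 had a count and 32 passed the filter, which a gene can pass through its higher line alone. Of these 32, 9 were called higher in MV+ (28.1%, against 40.4% of all genes tested), 15 were called lower (46.9%, against 38.9%) and 8 were not called. The called share was thus 75.0%, near the 79.3% of all genes tested. Past an absolute log2 fold change of 1, 8 members were higher (25.0%, against 18.7%) and 10 lower (31.3%, against 16.4%). In CPM, counts scaled by the TMM library size,, the libraries of the lines did not overlap for 26 of the 32 (81.3%, against 80.6%). The median log2 fold change was -0.20 over these members and 0.03 over all genes tested. On the deposited FPKM, which are scaled by library totals, the log2 differences of all genes lay higher by a median of 0.17 to 0.18, and limma on FPKM called 12 to 13 members higher and 14 to 16 lower and moved the share of higher calls among all called genes from 50.9% to between 60.8% and 61.0%.

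**Figure D2:**
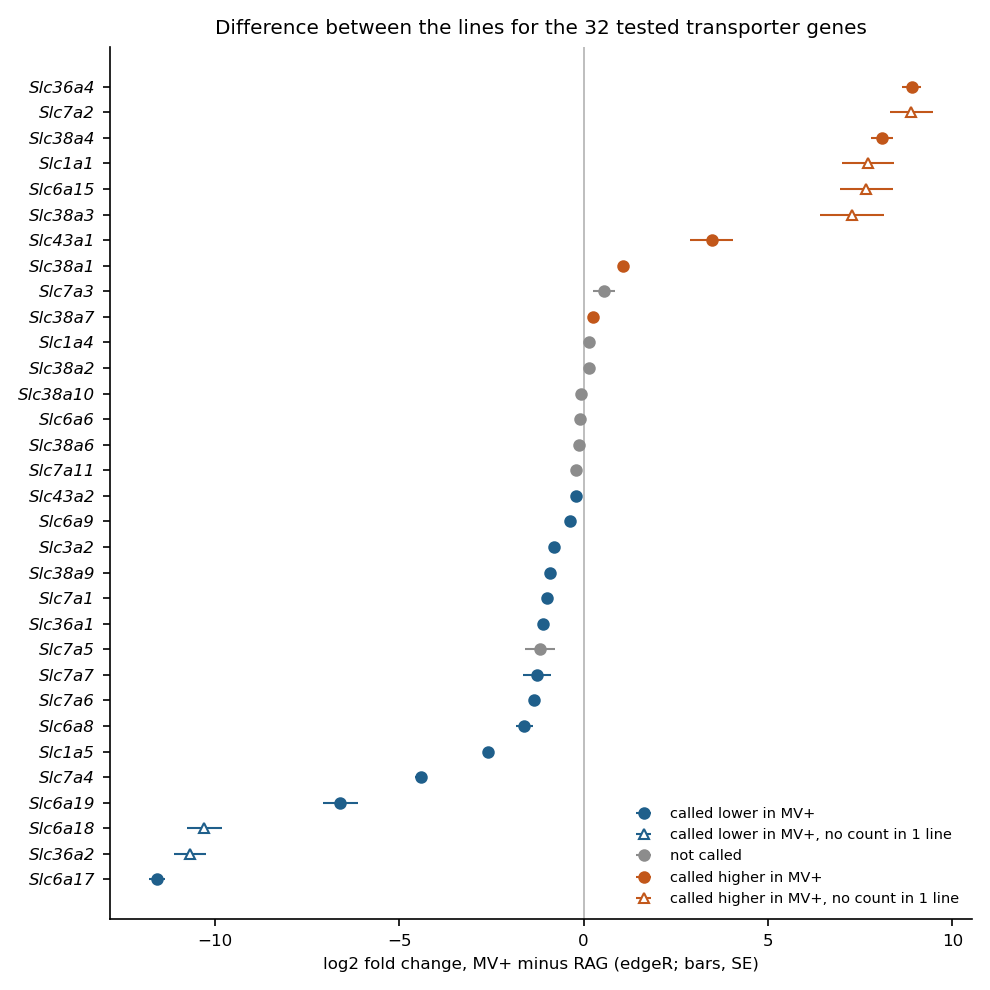
Log2 fold change (x axis, MV+ minus RAG, edgeR) with its SE for the 32 tested members, coloured by call, with open triangles for members without a count in 1 line, whose fitted value depends on the prior count. The values ran from -11.57 for Slc6a17 to 8.90 for Slc36a4, and 13 members lay within 1 of zero.

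The heavy chain Slc3a2 and the light chains Slc7a5 and Slc7a6 had the highest mean FPKM of the members in RAG, and in MV+ Slc3a2 and Slc7a5 did, with Slc38a2, Slc6a6 and Slc38a1 above Slc7a6. Slc3a2 (chr19:8781372-8797859, minus strand, 10 exon blocks) encodes the heavy chain CD98 and gave 92.3, 91.3 and 87.2 FPKM in MV+ and 137, 132 and 149 in RAG. The groups did not overlap, and the edgeR log2 fold change was -0.81 ± 0.07 (SE, adjusted p = 2.17e-08). Slc7a6 (chr8:108692775-108722604, plus strand), a light chain that exchanges cationic for neutral amino acids, gave 31.8, 35.1 and 34.0 FPKM in MV+ and 71.5, 76.7 and 78.2 in RAG. Every MV+ library was below every RAG library, at 0.393 times the RAG level (-1.35 ± 0.06 in log2, edgeR adjusted p = 2.54e-11).

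Slc7a5 (chr8:124405046-124431586, minus strand), the light chain that imports leucine and other essential amino acids, was the most abundant member in RAG, and of the 18 members with a mean of at least 10 CPM in MV+ it varied most among the MV+ libraries. Its level came to 120.2, 92.7 and 46.5 FPKM in replicates 1, 2 and 3 of MV+ and to 174, 167 and 180.2 in those of RAG. All MV+ libraries were below all RAG libraries, with replicate 3 of MV+ far below its fellows. The log2 fold change was -1.18 ± 0.41 (SE), and the edgeR adjusted p of 0.052 missed the threshold. Without MV+ replicate 3 the log2 fold change was -0.87 ± 0.11 (adjusted p = 1.89e-05), and without MV+ replicate 1 it was -1.51 ± 0.39 (adjusted p = 0.034). The highest MV+ library had 2.74 times the CPM of the lowest, a spread that 12 of 8810 genes with a mean of at least 10 CPM in MV+ reached (0.136%, with Slc7a5 counted and 6 of the 12 small RNA genes), against a median of 1.12 over those genes and a ratio of 1.07 for Slc7a5 in RAG. Replicate 3 was the lowest MV+ library for 8 of those 18 members and for 36.2% of all such genes.

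The balance of the chains varied within MV+. The ratio of Slc7a5 to Slc3a2 in FPKM was 1.30, 1.02 and 0.533 in MV+ and 1.27, 1.27 and 1.21 in RAG, so 1 MV+ library lay above the RAG libraries and the others below. Summed over 6 light chains (Slc7a5, Slc7a6, Slc7a7, Slc7a8, Slc7a11 and Slc7a10, which had no count), the ratio to Slc3a2 was 1.66, 1.42 and 0.939 in MV+ and 1.81, 1.86 and 1.74 in RAG. Slc7a15, at no more than 0.0608 FPKM in a library, was left out of the sum. Slc7a5 made up 78.3%, 71.5% and 56.8% of that sum in MV+ and 68.0% to 70.5% in RAG.

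**Figure D3:**
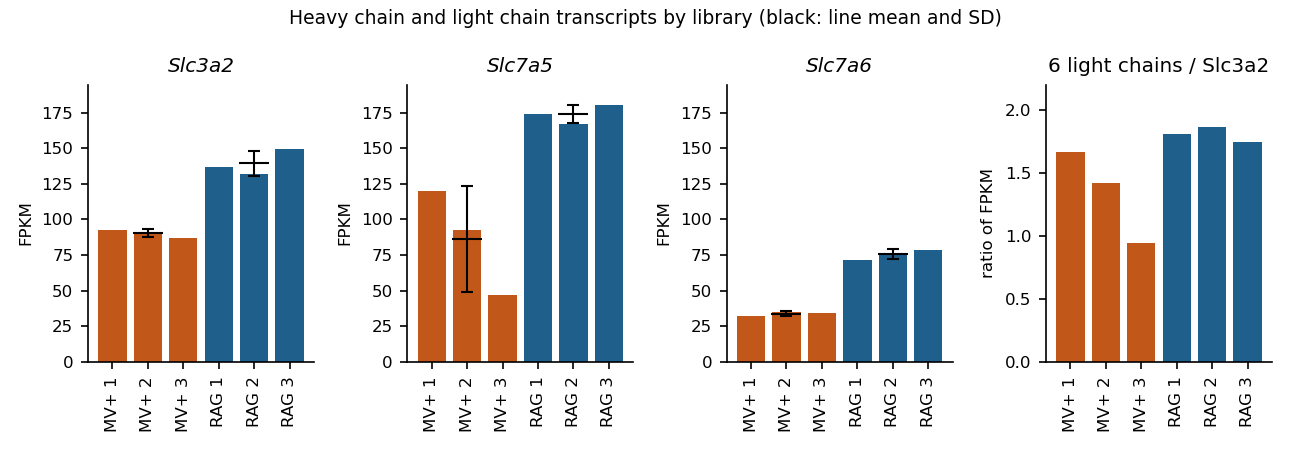
FPKM of Slc3a2, Slc7a5 and Slc7a6 and the ratio of the summed FPKM of the 6 light chains to Slc3a2 (y axes from 0), with 1 bar per library, orange for MV+ and blue for RAG, and the mean and SD of each line in black in the FPKM panels. In MV+ replicate 3, Slc7a5 was at 46.5 FPKM while Slc3a2 and Slc7a6 were at 87.2 and 34.0.

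Of the other light chains, Slc7a11, the cystine and glutamate exchanger that feeds glutathione synthesis and whose promoter is printed above, was at 1.52 ± 0.146 FPKM in MV+ and 1.54 ± 0.223 in RAG (SD, n = 3). The libraries overlapped and the gene was not called (log2 fold change -0.20 ± 0.11, edgeR adjusted p = 0.124), though it was called without RAG replicate 1 (adjusted p = 0.0399). Slc7a7, a basolateral exchanger of cationic amino acids in kidney and gut, was at 0.127 ± 0.0838 and 0.275 ± 0.0373 FPKM and was called lower in MV+ (-1.27 ± 0.38, edgeR adjusted p = 0.00681, and -1.93 without MV+ replicate 2). Its exons overlap those of Oxa1l on the opposite strand. The counts took no account of strand and left out reads that overlapped both genes. Slc7a8, the other large neutral carrier of the tubule, had no count in MV+ and 3, 0 and 3 in RAG. Slc7a9, Slc7a10, Slc7a12 and Slc7a13 had no count in any library, and Slc3a1, the heavy chain that pairs with Slc7a9 in cystine reabsorption, had 3 to 5 counts per library and exons that overlap those of Prepl on the opposite strand.

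Of the Slc1 family, the glutamine carrier separated the lines and the glutamate carriers were barely read. Slc1a5 (chr7:17366695-17383623, plus strand, 9 exon blocks), a sodium-dependent exchanger of glutamine and other small neutral amino acids, gave 11.6, 12.9 and 13.5 FPKM in MV+ and 64.0, 69.1 and 68.5 in RAG. The groups were far apart, at 0.166 times the RAG level in MV+ (log2 fold change -2.59 ± 0.07, edgeR adjusted p = 3.01e-14). Slc1a4, its close relative that carries serine and alanine, was at 4.92 ± 0.444 FPKM in MV+ and 3.89 ± 0.235 in RAG and was not called (0.15 ± 0.10, adjusted p = 0.165). The ratio of Slc1a5 to Slc1a4 in FPKM was therefore 2.19 to 2.92 in MV+ and 16.0 to 19.1 in RAG. Slc1a1, a glutamate and cysteine carrier of neurons and proximal tubule, had 16, 22 and 23 counts in MV+ and none in RAG, at least 31.8-fold higher in MV+ against 3 counts over the RAG libraries. Slc1a2 and Slc1a3, the astrocyte glutamate carriers, had at most 26 and 7 counts in a library and were not tested.

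Of the sodium-coupled neutral carriers of the Slc38 family, 8 of 11 were tested, and 4 were called higher in MV+, 1 lower and 3 not called, against 40.4% higher and 38.9% lower over all genes tested. Slc38a1 (chr15:96401849-96473344, minus strand, 18 exon blocks), a glutamine carrier of the cell surface, gave 39.6, 41.0 and 41.1 FPKM in MV+ and 17.1, 17.0 and 16.5 in RAG. It was 2.12 times higher in MV+ with no overlap (log2 fold change 1.08 ± 0.07, edgeR adjusted p = 8.72e-10). Slc38a2 (chr15:96517823-96530129, minus strand), the carrier induced by amino acid shortage and by osmotic stress, gave 53.9, 53.6 and 59.4 FPKM in MV+ and 44.0, 45.2 and 44.4 in RAG. The FPKM did not overlap, but the edgeR log2 fold change after TMM scaling was 0.14 ± 0.07 with an adjusted p of 0.0727. With the replicate number as a block it was called at the same size (0.14 ± 0.05, adjusted p = 0.0228).

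Slc38a4 (chr15:96825254-96886387, minus strand), a carrier of liver and placenta that also takes cationic amino acids, was read almost only in MV+. It gave 3.56, 3.54 and 2.81 FPKM from 244, 274 and 248 counts in MV+ and 0.00753, 0 and 0.0177 FPKM from 1, 0 and 3 counts in RAG. The lines did not overlap, and the summed scaled counts were 299.7 times higher in MV+ with a 95% counting interval from 117 to 1103 (log2 fold change 8.09 ± 0.30, edgeR adjusted p = 1.13e-12). Without RAG replicate 3 the log2 fold change was 9.05. Of the summed FPKM of Slc38a1, Slc38a2 and Slc38a4, Slc38a1 made up 39.8% to 41.8% in MV+ and 27.1% to 28.0% in RAG.

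Slc38a10 (chr11:119965265-120012665, minus strand), a widely expressed family member, was near equal in the lines, at 32.8, 33.4 and 34.3 FPKM in MV+ and 30.2, 30.1 and 32.2 in RAG. The FPKM were slightly higher in MV+ while the scaled log2 fold change was -0.06 ± 0.06 (edgeR adjusted p = 0.359), so its direction depended on the scaling. Slc38a9, the lysosomal carrier that reports arginine to mTORC1, was at 1.10 ± 0.0890 FPKM in MV+ and 1.82 ± 0.188 in RAG (-0.90 ± 0.11, edgeR adjusted p = 2.31e-06). Slc38a7, a lysosomal glutamine carrier, was called higher in MV+ by a small margin (8.003 ± 1.36 against 5.97 ± 0.710 FPKM, 0.24 ± 0.10, edgeR adjusted p = 0.0452), a call that was lost without MV+ replicate 3 (0.12, adjusted p = 0.304), without RAG replicate 1 (0.24, 0.0811) and without RAG replicate 2 (0.19, 0.158). Slc38a6 was at 2.02 ± 0.304 and 1.96 ± 0.147 FPKM with no call and a direction that also changed with scaling, and Slc38a3, a glutamine carrier of liver, brain and kidney, had 19, 12 and 14 counts in MV+ and none in RAG, at least 23.5-fold higher in MV+.

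The Slc36 family held a member read almost only in MV+ and a member read only in RAG. Slc36a4 (chr9:15514213-15543233, plus strand, 11 exon blocks), a high-affinity carrier of proline and tryptophan whose promoter is printed above, gave 11.4, 12.9 and 11.0 FPKM from 384, 493 and 477 counts in MV+ and 0, 0.0365 and 0.0239 FPKM from 0, 2 and 2 counts in RAG. MV+ libraries were high and RAG libraries at the limit of detection, a ratio of 530 in summed scaled counts (95% counting interval 206 to 1947, log2 fold change 8.90 ± 0.25, edgeR adjusted p = 3.93e-14). Slc36a2 (chr11:54971970-54998579, minus strand), a proton-coupled carrier of proline and glycine in the kidney, had the opposite pattern. It had no count in MV+ and 232, 198 and 315 counts in RAG, or 2.82, 2.88 and 3.002 FPKM, at least 159-fold lower in MV+ against 3 counts over its libraries (edgeR adjusted p = 2.96e-11). Slc36a1 (chr11:55017842-55049832, plus strand), the lysosomal member of the family, gave 1.95, 1.90 and 2.94 FPKM in MV+ and 3.94, 4.46 and 4.56 in RAG. It was lower in MV+ without overlap (-1.11 ± 0.13, edgeR adjusted p = 2.71e-06).

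Several members lie near each other on mm9 chromosomes, and their levels could be set beside each other. On chromosome 11, Slc36a3 lies 6.76 kb from Slc36a2, which lies 19.3 kb from Slc36a1. Slc36a3 had no count in MV+ and 3, 2 and 2 in RAG, so of these 3 neighbours only Slc36a1 was read in MV+. On chromosome 15, Slc38a1 lies 44.5 kb from Slc38a2 and Slc38a2 lies 295 kb from Slc38a4, with no other gene of the table between them, and only Slc38a4 was nearly absent from a line. On chromosome 13, Slc6a18 and Slc6a19 are 3.13 kb apart and were both read in RAG, and Slc6a3, the dopamine transporter gene 83.1 kb away, had no count in any library. In all, 19 members formed 11 pairs in which the next member lay within 500 kb. Other genes of the table lay between the members of some pairs. There was 1 between Slc36a2 and Slc36a1, 2 between Slc6a3 and Slc6a18 and 16 between Slc7a7 and Slc7a8.

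**Figure D4:**
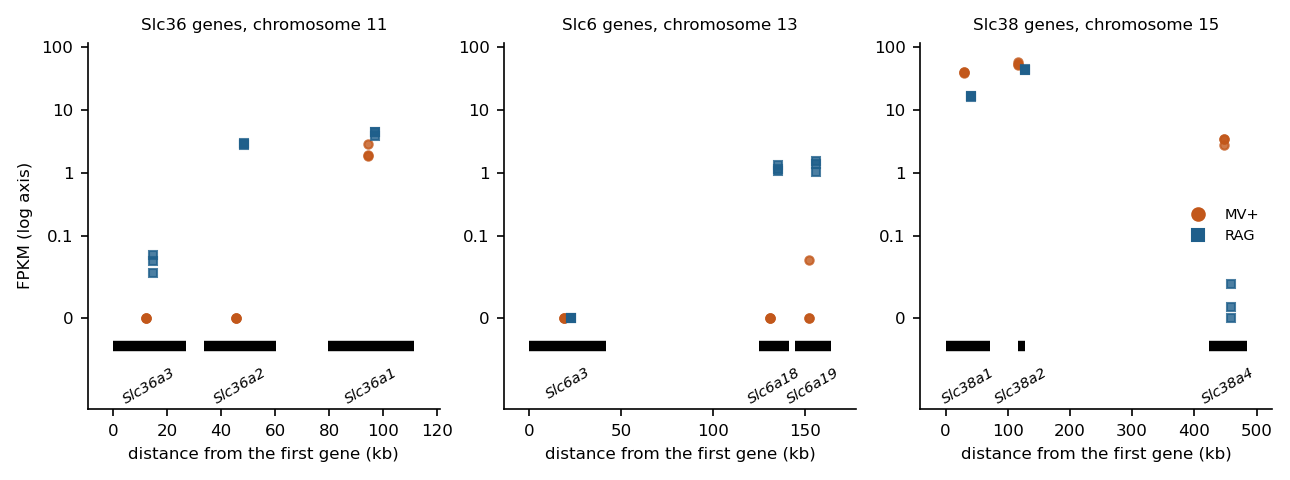
FPKM (log axis, libraries with no count at the lowest tick) against distance in kb from the first gene for the neighbouring members on chromosomes 11, 13 and 15, with black bars for the gene bodies, orange circles for MV+ libraries and blue squares for RAG libraries. Slc36a2, Slc6a18 and Slc6a19 were read at 1.06 to 3.002 FPKM in RAG and at 0 to 0.0416 in MV+, and Slc38a4 showed the reverse.

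The Slc6 family had 7 tested members of 17, of which 1 was called higher in MV+, 5 lower and 1 not called, against 79.3% called in either direction and 38.9% called lower over all genes tested. Slc6a17 (chr3:107270466-107320936, minus strand, 12 exon blocks), a vesicular carrier of neutral amino acids known from neurons, had the lowest log2 fold change of the tested members, and its promoter is printed above. It gave 16.2, 15.9 and 16.9 FPKM from 3449, 2833 and 4614 counts in RAG and 0, 0.0161 and 0 FPKM from 0, 2 and 0 counts in MV+. The ratio of summed scaled counts was 3482, with a 95% counting interval from 964 to 28752 (log2 fold change -11.57 ± 0.21, edgeR adjusted p = 2.41e-16). The fitted value rested on the 2 counts of MV+ replicate 2, as it was -14.61 without that library and -10.94 without MV+ replicate 3. Of the 15 neuronal markers only 4 were tested, and 3 of these were higher in MV+, where Slc6a17 was nearly absent. Map2 had no count in RAG, and Tubb3 was at 12.1 ± 1.31 FPKM in MV+ and 0.202 ± 0.122 in RAG. Syt1 was higher at a low level, 0.0964 FPKM in MV+ and 0.0202 in RAG. Slc17a7 was called lower in MV+ (1.05 against 1.43 FPKM, log2 fold change -0.61, edgeR adjusted p = 0.00111). What these markers have to do with Slc6a17 was not tested.

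Slc6a18 and Slc6a19 carry neutral amino acids across the brush border of the proximal tubule. Slc6a18 (chr13:73799198-73815471, minus strand) gave 1.16, 1.11 and 1.38 FPKM in RAG and no count in MV+, at least 122-fold lower in MV+ (edgeR adjusted p = 1.53e-10). Slc6a19 (chr13:73818605-73838143, minus strand) gave 1.06, 1.57 and 1.42 FPKM from 87, 108 and 150 counts in RAG and 0, 0.0416 and 0 FPKM from 0, 2 and 0 counts in MV+. The ratio of scaled counts was 110.2 (95% counting interval 30.3 to 914, log2 fold change -6.60 ± 0.47, edgeR adjusted p = 3.21e-09), and the log2 fold change was -9.63 without MV+ replicate 2 and -5.97 without MV+ replicate 3. Tmem27, their known partner at the kidney brush border, had no count in any library. Hnf4a, a proximal tubule regulator, was at 0.128 to 0.204 FPKM in RAG.

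The osmolyte, creatine and glycine carriers were expressed in both lines. Slc6a6 (chr6:91634061-91709057, plus strand), the taurine transporter that cells use against osmotic stress, gave 46.6, 43.7 and 48.2 FPKM in MV+ and 44.5, 41.2 and 45.0 in RAG. The libraries overlapped and it was not called (-0.10 ± 0.07, edgeR adjusted p = 0.196). Slc6a8 (chrX:70918472-70927839, plus strand), the creatine transporter, gave 7.32, 6.76 and 4.92 FPKM in MV+ and 16.6, 13.3 and 21.2 in RAG. It was lower in MV+ with no overlap (-1.61 ± 0.22, edgeR adjusted p = 0.000923), and it varied within both lines, as 1.48% of genes in MV+ and 1.69% in RAG with a mean of at least 10 CPM had as large a ratio of highest to lowest library. Slc6a9 (chr4:117507863-117541910, plus strand), the glycine transporter whose exons overlap Ccdc24 on the opposite strand, gave 10.1, 9.08 and 7.60 FPKM in MV+ and 10.9, 9.05 and 10.5 in RAG. Its FPKM overlapped, and its call as lower in MV+ (-0.37 ± 0.12, edgeR adjusted p = 0.0124) was lost on the FPKM scale and without RAG replicate 1 (-0.28, adjusted p = 0.0504).

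Slc6a15, a neuronal carrier of branched-chain amino acids, had 20, 18 and 21 counts in MV+ and none in RAG, at least 30.8-fold higher in MV+. The transporters that name the family were near or at zero. The genes for the dopamine transporter (Slc6a3) and a glycine transporter (Slc6a5) had no count in any library, nor did Slc6a11 and Slc6a14, and those for noradrenaline (Slc6a2), serotonin (Slc6a4) and GABA or betaine (Slc6a12 and Slc6a13) had 0 to 2 counts per library.

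Of the cationic carriers of the Slc7 family, Slc7a1 (chr5:149138986-149211480, minus strand, 13 exon blocks), the general importer of arginine and lysine, gave 15.2, 12.5 and 16.5 FPKM in MV+ and 27.1, 23.7 and 26.3 in RAG. The lines were separate, at 0.505 times the RAG level in MV+ (-0.98 ± 0.10 in log2, edgeR adjusted p = 5e-07). Slc7a4 (chr16:17572111-17576764, minus strand), a relative with no settled substrate, gave 0.320, 0.173 and 0.276 FPKM in MV+ and 4.75, 4.63 and 5.03 in RAG. It was lower in every MV+ library (-4.41 ± 0.16, edgeR adjusted p = 9.89e-13). Slc7a2, the inducible arginine carrier of liver and macrophages, had the reverse pattern at a low level, with 33, 51 and 55 counts in MV+ and none in RAG, at least 72.5-fold higher in MV+. Slc7a3 was at 0.354 ± 0.0652 and 0.211 ± 0.0356 FPKM and was not called (0.56 ± 0.29, edgeR adjusted p = 0.0908).

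In the facilitative Slc43 family, Slc43a1, a carrier of branched-chain amino acids, was at 0.303 ± 0.113 FPKM in MV+ and 0.0263 ± 0.0245 in RAG, a ratio of 11.8 in scaled counts (95% counting interval 5.37 to 30.9, log2 fold change 3.47 ± 0.59, edgeR adjusted p = 8.25e-05). It was 4.19 without RAG replicate 2 and 2.69 without RAG replicate 3. Slc43a2, its close relative, was at 2.72 ± 0.222 and 2.76 ± 0.225 FPKM. It was called lower in MV+ by a small margin (-0.20 ± 0.09, adjusted p = 0.0463), and 12 of the 16 alternative settings lost the call, among them those without MV+ replicate 1 (-0.18, 0.115), MV+ replicate 2 (-0.16, 0.152), RAG replicate 1 (-0.18, 0.116) and RAG replicate 3 (-0.19, 0.103).

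The members that were read but not tested numbered 19, with 1 to 46 counts summed over a line where they had any, and 8 more had no count in any library. Besides those named above they included Slc1a6, Slc1a7, Slc38a5, Slc38a8, Slc38a11, Slc43a3, Slc6a7 and Slc7a14.

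The genes around the carriers were called in both directions. Of 19 tested carriers of amino acids, peptides and vesicle contents outside the 7 families or their plain symbols, 3 were called higher in MV+ and 11 lower (median log2 fold change -0.37), against 40.4% higher and 38.9% lower over all genes tested. Slc16a10, a carrier of aromatic amino acids, was at 2.03 ± 0.226 FPKM in MV+ and 49.8 ± 2.60 in RAG (-4.79, edgeR adjusted p = 2.41e-16), and Slc22a4, an ergothioneine carrier, was also lower (-1.67). Slc15a2, a kidney and brain peptide carrier, was higher in MV+ at a low level (3.88), followed by Slc25a22, a mitochondrial glutamate carrier (0.56).

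Of 34 tested genes of the ATF4 amino acid response, 7 were called higher in MV+ and 22 lower (median -0.41), against 40.4% higher and 38.9% lower over all genes tested. The called share of the list was 85.3%, against 79.3% of all genes tested. Atf4 itself was at 231 ± 3.40 FPKM in MV+ and 347 ± 3.65 in RAG (-0.77, edgeR adjusted p = 3.19e-08). Ddit3 and Cebpb, transcription factors of the stress response, were lower (-2.63 and -2.18), and Atf3, another, and Ppp1r15a, which restores translation after stress, were higher (1.51 and 0.59). Atf4 was named after its value was seen. In MV+ its level was 232.5, 234 and 227.5 FPKM. Replicate 3, in which Slc7a5 was low, was the lowest MV+ library for 17 of the 32 genes of this list with a mean of at least 10 CPM in MV+, against 36.2% of all such genes. By the same measure it was lowest for 1 of 11 carriers outside the families and 6 of 29 sensing and mTORC1 genes. For the enzymes and the partners of the next paragraph it was lowest for 8 of 26 and 5 of 13. What this has to do with Slc7a5 was not tested.

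Of 35 tested genes of amino acid sensing and mTORC1, 13 were called higher in MV+ and 18 lower (median -0.22), against 40.4% higher and 38.9% lower over all genes tested. Rragb and Rragd, GTPases that recruit mTORC1 to the lysosome, went opposite ways, as Rragb was at 0.322 ± 0.0407 FPKM in MV+ and 62.2 ± 4.46 in RAG (-7.76, edgeR adjusted p = 6.83e-17) and Rragd at 1.65 ± 0.227 and 0.139 ± 0.00383 (3.38, adjusted p = 3.32e-11). Fnip2, a partner of folliculin, was lower (-1.96), and Tsc2, an inhibitor of mTORC1, was higher (1.57). Of 32 tested enzymes of glutamate, glutamine, proline, serine and cysteine metabolism, 8 were called higher and 18 lower (median -0.30), against the same 40.4% and 38.9%. Prodh, which degrades proline (-2.69), and Gclm, a subunit of glutathione synthesis (-2.54), were lower, and Bcat1, which transaminates branched-chain amino acids (2.33), was higher. Of 17 tested partners and trafficking genes, 7 were called higher and 9 lower (median -0.22), again against 40.4% and 38.9%. Lgals3, a lectin that binds CD98 (-3.34), was lower, and Stx1a (1.77) and Cd44 (1.68) were higher. Sgk2, a kinase that regulates carriers, was lower (-4.80) at a low level, 0.0142 FPKM in MV+ and 0.379 in RAG. Of its relatives, Sgk1 was higher in MV+ (12.2 against 4.60 FPKM, 1.23) and Sgk3 was lower (-3.07).

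**Figure D5:**
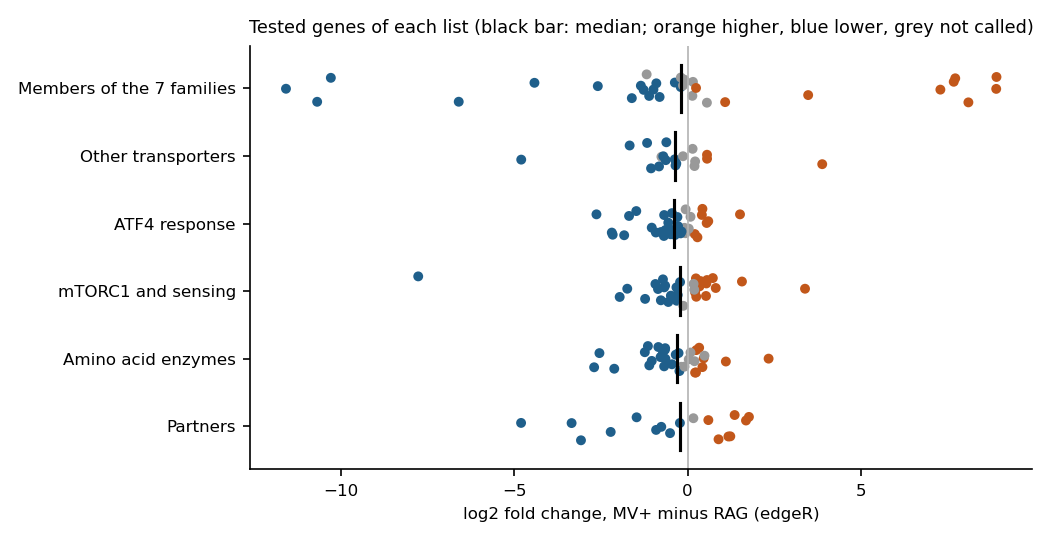
Log2 fold change (x axis, MV+ minus RAG, edgeR) of the tested members and of the tested genes of 5 related lists, with 1 point per gene spread vertically for legibility, orange for called higher in MV+, blue for called lower, grey for not called, and a black bar at each median. The medians lay between -0.41 and -0.20, and the members reached from -11.57 to 8.90.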

How the data were processed

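Total RNA was depleted of ribosomal RNA and sequenced as single reads of 50 nt. Rn45s, the ribosomal RNA precursor, still took 13.2% to 17.0% of counts in MV+ and 12.4% to 20.1% in RAG. The library totals that scale the deposited FPKM include it. The authors aligned reads to mm9 with TopHat2 version 2, used SAMtools 1.6, and deposited raw counts per RefSeq gene from featureCounts 1.5.0-p3 (Subread 1.5), which at its defaults ignores strand and leaves out reads that align to several places or overlap several genes. The deposited FPKM were made by the authors from these counts, summed exon length and the library total. Recomputing them gave a largest relative difference of 2.7e-15, and both count sheets that were deposited held the same values (0 differing cells).

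Counts of all 6 libraries were tested with edgeR 4.0.16 in R 4.3.3 (filterByExpr, TMM, robust quasi-likelihood test, two-sided, Benjamini-Hochberg over 12965 genes). The SE is the size of the log2 fold change over the square root of F. Counting intervals are exact at 95%, and bounds use a floor of 3 counts over a line. Both cover counting error only. Members and lists were chosen with earlier results of these data known. Members were given by library if tested and at a mean of at least 1 FPKM with an absolute log2 fold change of at least 1, or at a mean of at least 10 FPKM (19 genes). Others were given by range with the largest of each group, and of each list up to 2 called genes in each direction. Alternatives were other normalizations (RLE, upper quartile), Rn45s left out, other filters, DESeq2 1.42.0, limma 3.58.1 on log2(FPKM + 1) or log2(FPKM + 0.1), a replicate block, and each library left out.

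Libraries of a line differed by more than sampling noise (chi-square per degree of freedom of 8.87 to 92.7). Same-numbered MV+ and RAG libraries deviated together, with correlations across genes of 0.218, 0.143 and 0.134. The main test took no account of this pairing, and the replicate number entered only as the block among the alternatives. The fitting steps were tested on simulated data with 50 genes changed at each of 1.25, 1.5, 2 and 4 fold. Of these, 30%, 76%, 100% and 100% were called, and 6.13% of all calls were false. Far fewer genes were changed there than the 79.3% called in the data, so it does not give the error rate of the real comparison. A few genes of the families and lists are counted but not reported here by name.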

Additional observations from a re-analysis of the deposited data

How the results depend on the processing

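Of the 32 tested members, 21 kept direction and call under all 16 alternatives that could be fitted to them, 8 changed call and 3, none of them called, changed direction. Between 6 and 13 members were called higher in MV+ and between 13 and 17 lower, and between 26 and 51 were tested, with the fewest at a filter of 1 CPM. The direction changes came on scales without TMM. Slc38a10 was at 0.0183 with upper quartile scaling and, with limma at a pseudocount of 1, of 0.1 and of 1 without a filter, at 0.117, 0.12 and 0.117. In the same limma fits Slc38a6 was at 0.0249, 0.0336 and 0.0249 and Slc6a6 at 0.0815, 0.0831 and 0.0815. Slc7a5 was called with DESeq2 (-1.18, adjusted p = 0.00358) and with limma (adjusted p from 0.00977 to 0.0239), and Slc38a7 was not called with DESeq2 (0.24, adjusted p = 0.0675). Slc1a4 was called higher with upper quartile scaling (0.23, adjusted p = 0.0431) and with limma, Slc7a3 with limma, and Slc38a2 with upper quartile scaling, limma and the filter of 1 CPM (0.15, adjusted p = 0.0445). The cause of these changes was not tested. The replicate block called 10 members higher and 15 lower and changed no call but that of Slc38a2 (0.14, adjusted p = 0.0228). Depth limited the members with few counts.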
